A study of Rattus norvegicus with 24 samples.

Results

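The neutrophil granule proteins were followed at the transcript level in the peripheral blood of rats with and without LPS-induced enteritis. The set holds 10 genes, Mpo, Elane, Prtn3, Ctsg, Camp, Lcn2, Ltf, Ngp, Mmp8 and Mmp9, of the 25885 names carried by the non-control probes of the array. Probes were matched to them by gene name, with no use of measured values, each gene had 1 probe, and all 10 were found. In Cy3, the channel that the sample labels give to the rat RNA, Camp was well above background on every array, whereas the other 9 members were dim on most arrays, and Camp, the only member bright enough to be tested, did not reach an adjusted p under 0.05 in any comparison.

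Blood RNA of single rats was hybridized to 24 two-color Agilent SurePrint G3 Rat arrays, each against a common reference pooled from other rats of the experiment. The animals were male Sprague-Dawley rats, 8 weeks old at the start, kept for 6 weeks on a semi-synthetic diet. C-G0 rats received the plain diet and saline injections into the tail vein, and LPS-G0 rats the plain diet and repeated intravenous LPS at 10 mg/kg. C-G1 and LPS-G1 rats were treated alike but ate oat beta-glucan of high molecular weight with it (G1), and C-G2 and LPS-G2 rats that of low molecular weight (G2). Each of the 6 groups had 4 arrays. The labels of LPS-G0 replicates 3 and 4 are in conflict, since their titles name LPS and another field calls them controls. Both are kept in LPS-G0 here, by title. The arrays lay on 3 slides of 8, and every slide held all 6 groups.

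Neutrophils carry their antimicrobial proteins in granules that are filled one after another while the cell matures in the bone marrow. Azurophil granules are filled first and hold myeloperoxidase and the serine proteases. Specific granules follow, with lactoferrin, cathelicidin and lipocalin, and gelatinase granules last. Transcription of most of these genes is high in marrow precursors and low in circulating mature neutrophils, whereas mature cells transcribe receptor and calprotectin genes such as Csf3r, Cxcr2, S100a8 and S100a9. In whole blood, fewer cells of a type and less RNA per cell cannot be told apart.

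The array reads each transcript through a 60-base probe. The probes of Mpo, Elane and Mmp8 are shown whole because the azurophil and collagenase values below rest on them, and the last 30 bases of the Camp probe because Camp is the only member measured in every rat. In the Camp probe, capitals mark AATAAA, the letters of the polyadenylation signal.
Mpo: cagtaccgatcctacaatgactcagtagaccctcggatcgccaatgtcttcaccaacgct
Elane: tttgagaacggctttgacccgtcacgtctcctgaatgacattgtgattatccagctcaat
Mmp8: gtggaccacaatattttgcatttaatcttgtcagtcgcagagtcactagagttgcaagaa
Camp: ttcccaaaatAATAAActtggtaaaagaaa
On the rn4 assembly named by the array design, these lie at chr10:76094059-76094118 on the plus strand, chr7:11330273-11330751 on the minus strand, chr8:4410891-4410950 on the plus strand and chr8:114214914-114214943 on the minus strand. The Elane probe covers more genome than its own 60 bases and so crosses a gap in the genome, as a probe over an exon junction does. The probes of Ngp and Ltf lie on chromosome 8 too, at chr8:114798288-114798347 and chr8:115438446-115438505. Prtn3 lies beside Elane on chromosome 7, at chr7:11334729-11334788 on the minus strand.

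Promoters are shown for Camp, Lcn2 and Mmp8, whose log2 ratios went together over the arrays (below). The 250 bases before the annotated start of each are from RefSeq on the GRCr8 assembly, which is not the build of the array, and 8 of the 10 members matched an entry, all but Elane and Mmp9. Capitals mark TATAA or ATAAA, forms of the TATA box, and TTGCNNAA, a core of sites bound by the C/EBP factors of granulocytes.
Camp promoter, minus strand: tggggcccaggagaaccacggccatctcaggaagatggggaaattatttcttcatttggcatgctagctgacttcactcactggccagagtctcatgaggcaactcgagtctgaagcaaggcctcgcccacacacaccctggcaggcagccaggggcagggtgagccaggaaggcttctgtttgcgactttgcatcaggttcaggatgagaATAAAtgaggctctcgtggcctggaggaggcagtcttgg
Lcn2 promoter, minus strand: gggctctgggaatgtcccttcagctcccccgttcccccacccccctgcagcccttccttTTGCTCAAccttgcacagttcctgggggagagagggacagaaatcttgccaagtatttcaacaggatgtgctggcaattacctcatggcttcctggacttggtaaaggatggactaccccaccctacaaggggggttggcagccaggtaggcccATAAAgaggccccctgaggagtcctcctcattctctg
Mmp8 promoter, plus strand: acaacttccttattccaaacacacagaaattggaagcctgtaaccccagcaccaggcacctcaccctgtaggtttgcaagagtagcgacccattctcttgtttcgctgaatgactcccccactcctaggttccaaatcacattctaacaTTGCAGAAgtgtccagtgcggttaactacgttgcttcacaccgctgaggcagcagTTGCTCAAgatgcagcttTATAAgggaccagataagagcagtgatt
These windows lie at chr8:118721999-118722248, chr3:36081781-36082030 and chr8:13008640-13008889. Searched on both strands, TTGCNNAA was in the windows of Lcn2, Mmp8 and Ngp among the 8 members, and in 9.22% of all 33469 promoters of the same length. ATAAA was in 39.3% and TATAA in 24% of all promoters, and the letters of these motifs overlap each other. TTNNGNAAT, another C/EBP form, was in the windows of Mmp8 and Ngp and in 10.9% of all, GAGGAA (PU.1) in those of Mpo, Prtn3 and Ctsg and in 23.3% of all, and TGTGGT (RUNX) in that of Ctsg and in 14.5% of all. A match describes letters in a window, and no factor was measured at these sites.

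The number of probes above background differed between arrays. In Cy3, the channel of the rat RNA by the sample labels, 7788 to 15389 of 30367 probes stood well above background on an array. A probe counted as well above background on an array when at least 0.5 of its spots did. Camp was well above background on 24 of 24 arrays, as were 23.3% of all probes. Of the 10 members, 8 reached this level on at least 1 array, beside 67.3% of all probes, and 1, Camp, reached it on the 4 arrays of a group, as tests required, beside 35.3% of all probes. Mpo did so on 9 arrays, Lcn2 on 7, Ngp and Mmp8 on 6 each, Mmp9 on 3, Elane and Ctsg on 1 each, and Prtn3 and Ltf on 0. With every spot required, the counts were 4 for Mpo, 3 for Lcn2, 1 for Ngp, 4 for Mmp8, 2 for Mmp9, 1 for Elane and 0 for Ctsg. The study's methods name the dyes the other way round, with the rat RNA in Cy5, and these counts turn with that wording. In Cy5, Camp, Mpo and Mmp8 were well above background on 24 arrays each, Lcn2 and Mmp9 on 22 each, Elane on 12, Ngp on 8, Ctsg on 3, Ltf on 2 and Prtn3 on 0. No member was saturated.

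**Figure D1:**
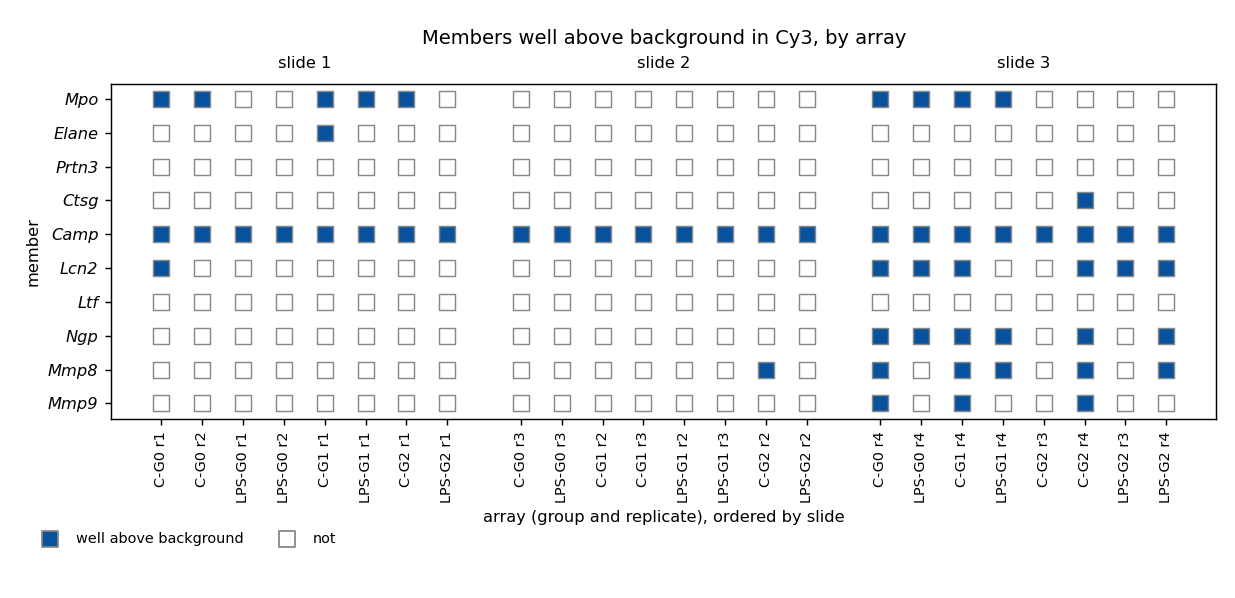
Each square is 1 member (rows) on 1 array (columns, ordered by slide and group), filled where its Cy3 signal stood well above background. Camp is filled on all 24 arrays, Prtn3 and Ltf on none, and most of the other filled squares are on slide 3.

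Reading the whole blood for its cell types put these values beside those of mature neutrophils. Of 16 mature neutrophil markers on the array, 10 were well above background on all 24 arrays, among them S100a8, S100a9, Csf3r, Cxcr2, Il1r2 and Padi4, and none was dim on every array. Of 10 erythroid genes, 9, all but Tfrc, were measured on every array, as were 8 of 10 platelet, 8 of 10 T cell, 6 of 10 NK and cytotoxic, 5 of 9 B cell and 5 of 10 monocyte genes. Of 12 eosinophil and basophil markers, Mcpt8 alone was measured on every array and 5, with Ear1, Ear11, Fcer1a, Ms4a2 and Prg3, on none. Of 12 genes of cell division, 3 were measured on every array.

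The detections of the 9 members other than Camp were unevenly spread over the arrays. There were 33 detections among 216 pairs of a member and an array, and 13 of 24 arrays had at least 1. Slide 1 had 7 of 72, slide 2 had 1 of 72 and slide 3 had 25 of 72. Slide 3 also had more probes of all kinds above background, a median of 13535.5 per array against 11204 on slide 1 and 10564.5 on slide 2. Over the 24 arrays, the number of members detected and the number of all probes detected had Pearson's r = 0.86 and Spearman's rho = 0.74, and r = 0.76 without the 2 arrays farthest from the median number of probes. Within slide 3, with 8 arrays, r was 0.93, and within the 16 arrays of slides 1 and 2 it was 0.42, and 0.17 without the 2 farthest. Both numbers of an array come from the same labelling and scan, and the 24 arrays share 1 reference.

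Arrays of rats without LPS had 22 detections of 108 and those of rats given LPS had 11 of 108. The direction was the same on slides 1, 2 and 3, with 6 against 1, 1 against 0 and 15 against 10. The size of the difference varied between slides, and on slide 2 it rests on 1 detection. By group there were 8 of 36 in C-G0, 7 in C-G1, 7 in C-G2, 3 in LPS-G0 and 4 each in LPS-G1 and LPS-G2. On slide 3, C-G0 replicate 4, C-G1 replicate 4 and C-G2 replicate 4 had 5 members each and 14385 to 15389 probes above background. The arrays of LPS-G0 replicate 4, LPS-G1 replicate 4 and LPS-G2 replicate 4 had 3 members each and 12737 to 13575 probes. C-G2 replicate 3, also on slide 3 and also without LPS, had 0 members and 11822 probes. LPS-G2 replicate 3, the remaining array of slide 3, had 1 member and 11226 probes. Probes above background ran from 9770 to 12613 without LPS and from 10977 to 12303 with LPS on slide 1. On slide 2 they ran from 7788 to 11101 and from 10282 to 10781, and on slide 3 from 11822 to 15389 and from 11226 to 13575, so the ranges overlapped on every slide. The part of the array's own sensitivity in the difference between LPS and no LPS was not tested. Detection did not always follow the signal. Mpo was detected at a Cy3 signal of 29.6 on C-G0 replicate 4 and not at 63.1 on LPS-G0 replicate 2. Its median Cy3 signal was 37.2 without LPS, with 6 detections, and 43.6 with LPS, with 3. Medians of Prtn3 and Ctsg were higher with LPS too, and those of Elane, Lcn2, Ltf, Ngp, Mmp8 and Mmp9 were lower. Detections of different members on 1 array share that array, so no test over them was made.

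**Figure D2:**
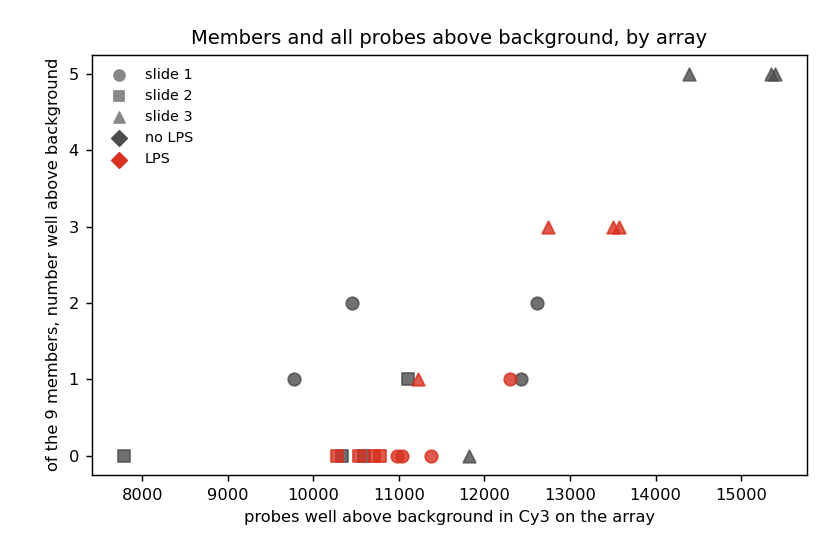
Each point is 1 array, with the number of all probes well above background in Cy3 on the horizontal axis and the number of the 9 members other than Camp on the vertical axis. The 3 arrays with 5 members have 14385 or more probes, all are on slide 3 and all are of rats without LPS.

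All ratios below are log2 of Cy3 over Cy5, the rat over the reference, and 0 is the level of the reference. This direction follows the labels, and every sign would turn under the wording of the methods. Of 7086 probes bright in Cy3 and Cy5 throughout, 95.3% varied more between rats of a group in Cy3, with a median log2 SD of 0.38 there and 0.26 in Cy5. For Camp the SD over the 24 arrays was 0.44 in Cy3 and 0.24 in Cy5. For a signal not significant over its background the scanner software set a substitute, and spots with a substitute in both channels have a ratio of 0. Dim members therefore hold some ratios at or near 0 that are no measurement of equal levels. Other ratios with Cy3 dim lay far from 0, as for Mmp8 at -2.52 on C-G2 replicate 3 and Ngp at 1.60 on LPS-G0 replicate 1. Such values rest on signals near background.

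Camp encodes cathelicidin, the precursor of an antimicrobial peptide stored in specific granules. In C-G0 its log2 ratio was 0.49, -0.05, 0.27 and -0.30 in replicates 1 to 4. In LPS-G0 it was -0.65, -0.26, -0.45 and -0.42, the narrowest spread of any group (SD 0.16). All LPS-G0 rats were thus below the reference, and they overlapped with C-G0 only through C-G0 replicate 4. In C-G1 the values were -0.23, -0.87, -0.21 and 0.28, and in LPS-G1 they were -0.25, -0.44, 0.14 and -0.05. In C-G2 they were -0.27, 1.16, -0.53 and 0.62, and in LPS-G2 they were 0.48, -0.32, 0.56 and 0.09. C-G2 spread most (SD 0.78), with the highest rat of the whole series in replicate 2, and the lowest of the series was C-G1 replicate 2.

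By mean the order of the groups was C-G2 at 0.25 ± 0.78, LPS-G2 at 0.20 ± 0.40, C-G0 at 0.10 ± 0.35, LPS-G1 at -0.15 ± 0.25, C-G1 at -0.26 ± 0.47 and LPS-G0 at -0.45 ± 0.16 (SD, n = 4). Every pair of neighbours in this order overlapped in its single rats, and neighbouring means were less than 1 SD of the wider group apart.

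**Figure D3:**
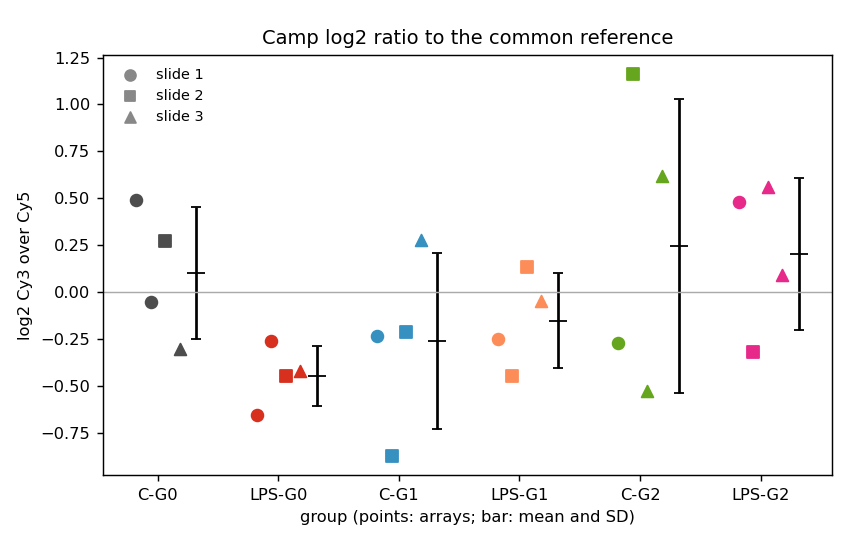
Points are the log2 Cy3 over Cy5 of Camp on each array by group, with a marker for each slide, and the bars are the mean and SD of 4 arrays. The LPS-G0 arrays sit between -0.65 and -0.26, and the C-G2 arrays span -0.53 to 1.16.

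The first comparison asked what LPS did in rats on the plain diet. Camp was lower in LPS-G0 than in C-G0 by a log2 difference of -0.55 (SE 0.21, 95% CI -0.99 to -0.10), 1.46-fold. The unadjusted p of limma's moderated test was 0.019 and the adjusted p was 0.256, so that Camp was not called, and the exact permutation test gave 0.0571, where 0.0286 is the smallest p that 4 arrays against 4 allow. Camp was the only member that passed the filter on dim probes, so 0 of 1 tested members were called by limma, beside 0.00969% of 10315 probes tested, and 1 had an unadjusted p under 0.05, as did 15.2% of the probes. With the analysis of variance and Tukey's test of the study's methods, 0 members passed either with or without adjustment in this comparison. Within slides the difference was -0.68 on slide 1, -0.72 on slide 2 and -0.12 on slide 3, with 1 or 2 arrays a side.

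The other comparisons of the study asked what the beta-glucans did in rats given LPS. Camp was higher in LPS-G2 than in LPS-G0 by 0.65 on the log2 scale (SE 0.21, 95% CI 0.20 to 1.096), 1.57-fold, with an unadjusted p of 0.00693 and an adjusted p of 0.597 by limma. The exact permutation p was 0.0571, and the groups overlapped through LPS-G2 replicate 2. Within slides it was 0.94, 0.13 and 0.75. In LPS-G1 vs. LPS-G0 the difference was 0.30 (SE 0.21, 95% CI -0.15 to 0.74), with an unadjusted p of 0.18 and an adjusted p of 0.368 by limma and an exact permutation p of 0.114, and 0.21, 0.29 and 0.37 within slides. Limma called 0 members in LPS-G2 vs. LPS-G0 and in LPS-G1 vs. LPS-G0, beside 0% and 8.93% of all probes. At an unadjusted p under 0.05 the counts were 1 and 0 members of the 1 tested, beside 8.24% and 26.9% of probes, and the methods' analysis of variance gave 1 and 0 without adjustment and 0 with it. The comparisons share the LPS-G0 arrays.

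The remaining comparisons took in the rats fed beta-glucans without LPS. Camp differed by -0.36 in C-G1 vs. C-G0 (95% CI -0.98 to 0.26) and by 0.14 in C-G2 vs. C-G0 (95% CI -0.47 to 0.76) on the log2 scale. LPS-G1 vs. C-G1 gave 0.11 (95% CI -0.51 to 0.73), LPS-G2 vs. C-G2 gave -0.04 (95% CI -0.66 to 0.58) and LPS-G1 vs. LPS-G2 gave -0.35 (95% CI -0.97 to 0.26). Limma called 0 of 1 tested members in each of these 5, beside 0.028%, 0.028%, 0.00934%, 0% and 0% of 10708 probes, and 0 had an unadjusted p under 0.05, beside 28%, 13.2%, 2.81%, 1.09% and 4.19%. All 5 intervals include 0. On slides 1, 2 and 3 the direction was not the same in any of the 5 comparisons. C-G1 vs. C-G0 was at -0.45, -0.81 and 0.58, C-G2 vs. C-G0 at -0.49, 0.89 and 0.35, LPS-G1 vs. C-G1 at -0.02, 0.39 and -0.32, LPS-G2 vs. C-G2 at 0.75, -1.48 and 0.28, and LPS-G1 vs. LPS-G2 at -0.73, 0.16 and -0.37.

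Over the 3 diets together, the difference between LPS and no LPS in Camp was -0.16 (SE 0.17, 95% CI -0.52 to 0.20), with an adjusted p of 0.771 by limma and an exact permutation p of 0.394 with arrays exchanged within each diet. By slide it was -0.16, -0.36 and 0.03. The LPS difference on G1 minus that on G0 was 0.66 (95% CI -0.22 to 1.53, adjusted p 0.999 by limma), and that on G2 minus that on G0 was 0.51 (95% CI -0.37 to 1.38, adjusted p 0.845 by limma). Limma called 0 members in these 3, beside 0.0187%, 0% and 0% of 10708 probes, and 0 at an unadjusted p under 0.05, beside 9.57%, 3.01% and 5.57%. The responses on the 3 diets were therefore not shown to differ.

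Among the azurophil members, Mpo encodes myeloperoxidase, which makes hypochlorous acid from hydrogen peroxide. Its log2 ratio in C-G0 was 1.69, 0.69, -0.39 and 0.96 in replicates 1 to 4, well above background in all but replicate 3. In LPS-G0 it was -0.22, 0.55, -0.57 and 1.22, well above background in replicate 4 alone. The groups overlapped, and Mpo went with the slide, with medians of 0.59 on slide 1, -0.37 on slide 2 and 0.92 on slide 3 and 5, 0 and 4 arrays above background. In C-G1 it was detected on 2 arrays, in LPS-G1 on 2, in C-G2 on 1 and in LPS-G2 on 0. No group measured Mpo on all 4 arrays, so that it was not tested.

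Elane encodes neutrophil elastase and was read by 1 spot only. It was well above background on 1 array, C-G1 replicate 1, where the Cy3 signal was 442 and the log2 ratio 3.13. On the other 23 arrays the Cy3 signal lay between 9.74 and 43.9. The neighbouring gene Prtn3, for proteinase 3, was dim on that array as on all others, with a Cy3 signal of at most 18.9, and Mpo was at -0.17 there. Ctsg, for cathepsin G, was above background on C-G2 replicate 4 alone, at 1.42. The Elane value rests on 1 spot of 1 rat and has no second spot to be set against. A probe whose spots were all outliers was kept, so that this value would have stayed even if flagged as an outlier.

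Of the specific granule members, Lcn2 encodes lipocalin 2, which binds bacterial siderophores. In Cy5 it was well above background on 22 of 24 arrays, and its median log2 ratio was -0.99. The median signal was 18.6 in Cy3 and 42 in Cy5. Where Cy3 was dim, the ratio sets a signal near background over the reference and does not measure a lower level. In C-G0 the Lcn2 ratio was 0.76, -1.82, -0.10 and -0.72 and in LPS-G0 -1.66, -0.97, -1.99 and 0.08. The LPS-G1 values were -1.81, -1.70, -1.45 and -0.27 (0 arrays above background), and those of LPS-G2 0.74, -1.59, 0.90 and 0.06 (2 arrays). Both LPS-G2 arrays above background were on slide 3, where LPS-G1 had 1 array and LPS-G2 had 2. C-G1 ran from -1.65 to -0.47 and C-G2 from -1.42 to 1.46, and the groups overlapped.

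Ngp encodes neutrophilic granule protein, a cathelicidin-related protein of specific granules in rodents. In LPS-G0 its log2 ratio was 1.60, 1.23, 1.16 and 1.18. The LPS-G1 rats were at -0.04, 0.55, 0.10 and 0.37, the LPS-G2 rats at 1.08, 0.57, 0.20 and 0.47, and the C-G1 rats at 0.68, 0.65, 0.74 and 0.78. All LPS-G0 values were above all of LPS-G1 and of LPS-G2, and all C-G1 values were above all of LPS-G1. Among the 10 members Ngp was the 1 whose groups did not overlap in each of these 3 comparisons, beside 21.9%, 10.5% and 2.73% of all probes tested, and 0 members were free of overlap in LPS-G0 vs. C-G0, C-G1 vs. C-G0, C-G2 vs. C-G0, LPS-G2 vs. C-G2 and LPS-G1 vs. LPS-G2, beside 5.04%, 7.04%, 2.62%, 1.07% and 6.57%. C-G0 ran from 0.18 to 1.46 and C-G2 from 0.50 to 1.58, across most of the LPS-G0 range. Ngp was well above background on 1 array of each group, always replicate 4 on slide 3. On those 6 arrays C-G0 was at 0.88, C-G1 at 0.78, C-G2 at 1.24, LPS-G0 at 1.18, LPS-G1 at 0.37 and LPS-G2 at 0.47. It did not pass the filter, and on slides 1 and 2 both channels were dim, so that most of these ratios compare signals near the background. Ltf, for lactoferrin, was dim in Cy3 on all 24 arrays, with a signal of 9.02 to 37.7.

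The metalloproteases Mmp8, the neutrophil collagenase, and Mmp9, gelatinase B, were well above background in Cy5 on 24 and 22 of 24 arrays. Their median log2 ratios were -0.69 and -0.73. Median signals were 43.5 in Cy3 and 69.7 in Cy5 for Mmp8, and 20.7 and 41.5 for Mmp9. Cy3 was dim on most arrays, and there the ratio sets a signal near background over the reference and does not measure a lower level. Mmp8 was 0.26, -1.72, -0.86 and -0.07 in C-G0 and -1.74, -1.03, -1.39 and -0.62 in LPS-G0, where it was dim on all 4 arrays. C-G0, LPS-G1 and LPS-G2 had 1 array each above background, so that no fold between these groups is given. In C-G2 Mmp8 ran from -2.52 to 0.85 and in C-G1 from -2.40 to 0.68, and both ends of each range were wider than in LPS-G0. Mmp9 was well above background in replicate 4 of C-G0, C-G1 and C-G2, at -0.20, 0.61 and 0.94, all on slide 3, and on 0 of 12 arrays of rats given LPS, whose values ran from -1.81 to -0.07. On slide 3 the LPS arrays for Mmp9 were at -0.12 (LPS-G0), -0.12 (LPS-G1), -0.34 and -0.07 (both LPS-G2).

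**Figure D4:**
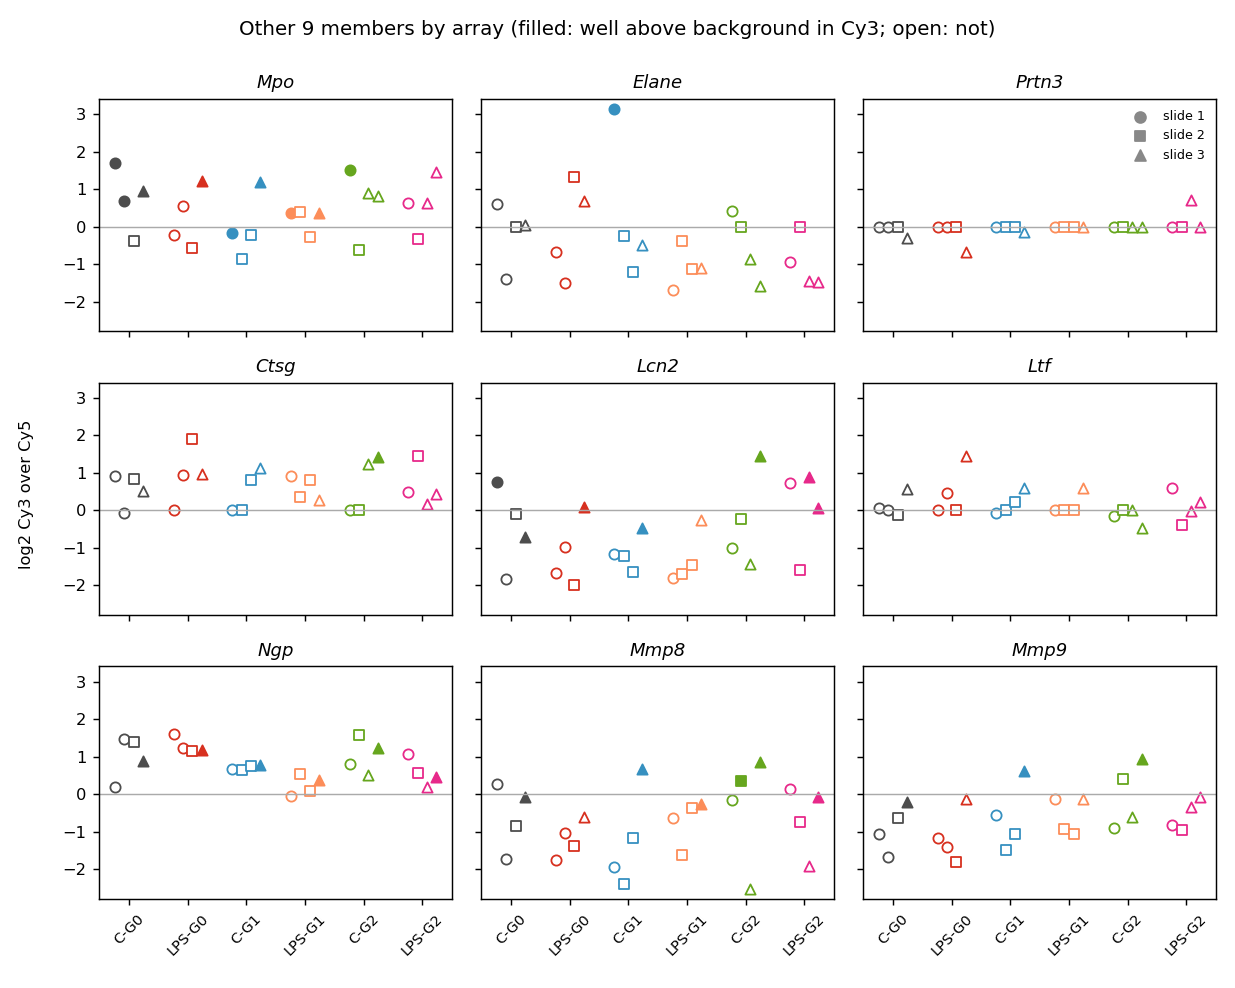
Each panel is 1 member, with the log2 Cy3 over Cy5 of every array by group, filled where Cy3 was well above background and marked by slide. Elane stands at 3.13 on 1 array of C-G1, and the 4 LPS-G0 points of Ngp lie between 1.16 and 1.60, above all LPS-G1 points.

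The members differed in how they went with Camp over the 24 arrays. Lcn2 had r = 0.69 with Camp (rho 0.65, and 0.72 without the 2 arrays farthest from the median of Camp), Mmp8 0.64 (rho 0.62, and 0.55) and Mmp9 0.54 (rho 0.49, and 0.33). Among themselves, Mmp8 and Mmp9 had r = 0.61, Lcn2 and Mmp9 0.58 and Lcn2 and Mmp8 0.55. The azurophil members had r = 0.16 for Mpo, -0.17 for Elane, 0.30 for Prtn3 and -0.04 for Ctsg with Camp, Ngp had 0.08 and Ltf -0.10. These are descriptions over arrays that share the reference and 3 slides, and for members that were dim on most arrays they compare signals near background.

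Of 4475 named genes measured on every array, the 10 whose log2 ratio was most like that of Camp over the 24 arrays were Padi4 (r = 0.86), S100a8 (0.83), Ccl6 (0.79), S100a9 (0.79), Pla2g7 (0.78), Steap4 (0.75), Csf3r (0.74), Lrg1 (0.74), Il1r2 (0.74) and Dgat2 (0.74). The median r over all 4475 genes was 3e-04. Padi4 encodes an arginine deiminase of neutrophils, S100a8 and S100a9 the subunits of calprotectin, Csf3r the receptor of the granulocyte growth factor G-CSF, and Il1r2 a decoy receptor of interleukin 1. Without the 2 arrays farthest from the median of Camp, r lay between 0.62 for Steap4 and 0.88 for Padi4, and with group means removed between 0.64 for Csf3r and 0.83 for Padi4. No member other than Camp could enter, since none was measured on all arrays.

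The mean log2 ratio of the 10 mature neutrophil markers measured on every array went with Camp at r = 0.86 (rho 0.77, 0.80 without the 2 farthest arrays, 0.83 with group means removed). It ran from -0.49 to -0.21 in LPS-G0, from -0.13 to 0.07 in C-G0, from -0.33 to -0.08 in LPS-G1, from -0.14 to 0.40 in LPS-G2, from -0.54 to 0.42 in C-G1 and from -0.40 to 0.57 in C-G2. In this mean the LPS-G0 rats were therefore all below the C-G0 rats, as 3 of 4 were in Camp. Of single probes tested in this comparison, 5.04% had groups that did not overlap. Itgb2 and Ncf4, both among the 10, were higher in LPS-G0 than in C-G0, by 0.36 and 0.23, and the others were lower. For Itgb2 all LPS-G0 rats were above all C-G0 rats, at -0.58 to -0.48 against -1.25 to -0.59. Camp went with specific and gelatinase granule companions at r = 0.49, with azurophil companions at 0.38, with monocyte genes at -0.16, with T cell genes at -0.23 and with NK and cytotoxic genes at -0.28. The part of the share of neutrophils in the Camp values was not tested.

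**Figure D5:**
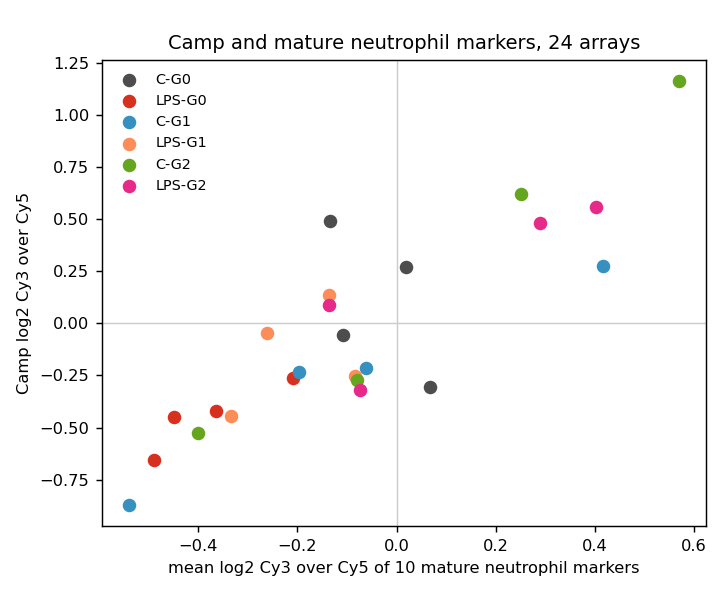
Each point is 1 of 24 arrays, with the mean log2 Cy3 over Cy5 of 10 mature neutrophil markers on the horizontal axis and that of Camp on the vertical axis, coloured by group. The LPS-G0 arrays lie at the lower left, and C-G2 replicate 2 is highest for both.

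Other genes of granules and of granulocytes were taken from lists of companions. Of 17 azurophil companions on the array, 6 were measured on every array, with Lyz2 (lysozyme), Cd63 and Srgn (serglycin) among them, and 4, all of them defensins (Np4, Defal1, Defa10 and Defa11), on none. The defensin RatNP-3b was above background on 12 arrays, Ms4a3 on 16, Ctsc, the protease that activates elastase and its relatives, on 23, and Bpi on 3. Of 17 companions of specific and gelatinase granules, 7 were measured on every array, with Chi3l1, Fcnb, Itgam and the oxidase subunits Cybb and Cyba. Olfm4, Arg1, Orm1 and Ptx3 were dim on all. Of 12 transcription factors and receptors, Cebpe, which drives specific granule genes, was above background on 12 arrays, Gfi1 on 0 and Cebpa on 1, while Csf3r, Cebpb, Cebpd, Runx1 and Csf2ra were measured on every array.

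In LPS-G0 vs. C-G0, 0 of 12 tested mature neutrophil markers were called, beside 0.00969% of all probes. The median log2 difference of those 12 was -0.48, with 9 lower and 3 higher, beside a median of 0.03 over all 10315 probes. Of the 12, 5 had an unadjusted p under 0.05, beside 15.2% of all probes. S100a9 differed by -0.73 (SE 0.28, adjusted p 0.258 by limma) and Fcgr3a by 1.09 (SE 0.36, adjusted p 0.22 by limma). Azurophil companions had a median of -0.11 with 7 of 8 lower, and specific and gelatinase companions -0.05 with 5 of 9 lower. The largest differences in these lists were 0.97 for Hp (haptoglobin), 0.64 for Slc11a1, 0.58 for Gusb and -0.34 for Man2b1, and 0 genes of either list were called. NK and cytotoxic genes had a median of 0.87, with 9 of 9 tested higher, 7 at an unadjusted p under 0.05 and 0 called. Transcription factors and receptors had 0 of 7 called, with Spi1 at 0.74 and Csf3r at -0.34. Slc11a1, Gusb and Spi1 were each above background on only 2 arrays of C-G0, and Gusb and Spi1 on 3 of LPS-G0. Their differences therefore rest partly on signals near background.

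In LPS-G1 vs. LPS-G0, 1 of 6 tested genes of the protease inhibitor list was called and 0 genes of the other companion lists, beside 8.93% of all probes. The called gene was Serpina3n, a serine protease inhibitor, with a log2 difference of -0.88 (SE 0.26, adjusted p 0.0464 by limma), between 0.67 ± 0.21 in LPS-G0 and -0.21 ± 0.27 in LPS-G1 (SD, n = 4). These groups did not overlap, as was so for 21.9% of all probes. Serpina3n passed the filter on dim probes only through LPS-G0, its highest group, where it was above background on 4 of 4 arrays beside 3 of 4 in LPS-G1, so its difference is given as a description. The protease inhibitor list had 5 of 6 tested genes lower, with a median of -0.29 beside 0.06 over all probes. Among the lower genes of this list is Elf3, a transcription factor and no protease inhibitor, with means of 0.45 in LPS-G0 and 0.01 in LPS-G1. Azurophil companions had 7 of 8 higher (median 0.22), with Lyz2 at 0.71 (adjusted p 0.129 by limma) and Cd63 at -0.45 (adjusted p 0.0853 by limma). Specific and gelatinase companions had 6 of 9 higher (median 0.18), with Fcnb, ficolin B, at 0.91 (adjusted p 0.0993 by limma) and Hp at 0.65. Mature neutrophil markers had a median of 0.18 and 0 of 12 called. Among markers of other cells, 2 of 10 erythroid genes (Klf1 and Epb42), 1 of 9 NK and cytotoxic genes (Klrk1) and 1 of 6 cell division genes (Tpx2) were called, all lower in LPS-G1, with list medians of -0.26, -0.28 and -0.57.

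In LPS-G2 vs. LPS-G0, 0 genes of any list were called, beside 0% of all probes. Mature neutrophil markers had a median of 0.59 with 10 of 12 higher. Of the 12, 6 had an unadjusted p under 0.05, beside 8.24% of all probes. S100a8 was at 0.92 (SE 0.26, adjusted p 0.597 by limma) and Trem1 at 0.98. Trem1 passed the filter on dim probes only through LPS-G2, its highest group in this fit, so its difference is given as a description. It was above background on 4 arrays of LPS-G2 and on 2 of LPS-G0. Specific and gelatinase companions had a median of 0.56 with 7 of 9 higher, with Fcnb at 0.78 and Cyba at 0.61, and azurophil companions 0.28 with 6 of 8 higher, with Lyz2 at 0.87 and Man2b1 at 0.45. The median over all 10315 probes was -0.02. NK and cytotoxic genes went the other way, with 9 of 9 lower, a median of -0.49 and 2 at an unadjusted p under 0.05, as did cell division genes, with 6 of 6 lower and a median of -0.43. Their part in the values of the granule genes was not tested. Transcription factors and receptors had 6 of 7 higher, with Csf3r at 0.59 and Csf2ra at 0.45, and the protease inhibitor list, Elf3 included, 3 of 6. Spi1, among those 6 higher factors and receptors, also passed the filter only through LPS-G2, its highest group in this fit. The lists were not tested as wholes.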

How the data were processed

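Blood RNA of 24 rats was measured against a common reference on two-color arrays. By the file headers, the authors made the deposited processed intensities with Agilent Feature Extraction (version 10.10.1.1, and 10.7.3.1 in the submitters' processing notes), with background subtraction and Lowess dye normalization. The deposited log10 ratios are Cy5 over Cy3. The authors' series table of log10 ratios holds 1511424 values, and all of them equal those of the single arrays. Here they were turned to log2 of Cy3 over Cy5, control spots and outlier spots (679 to 1133 per array) were left out, unless all spots of a probe were outliers, and spots of a probe averaged. A probe was tested where some group had it well above background on its 4 arrays in Cy3, which left 10315 probes for the 16 arrays of the study's own 3 comparisons and 10708 for all 24 arrays. Limma 3.58.1 (lmFit and eBayes, R 4.3.3) gave two-sided p-values, adjusted by Benjamini-Hochberg over all probes tested, after a check on simulated data. Probes with adjusted p under 0.05 were called. Single values were also tested by exact permutation over 70 arrangements. Genes with several probes were read by the brightest, and each member had 1 probe. The number of arrays limits the precision. Genes named are all members, the called genes of each companion list or else up to 2 with the largest difference, and the 10 most like Camp. Members and lists were chosen with earlier results of these data known. Alternatives were the filter, background correction, channel, source table, slide or replicate as a block, variance trend, array weights, left-out arrays and the methods' Tukey test.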

Additional observations from a re-analysis of the deposited data

Results flagged for a closer look

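In 6 of 60 combinations of a member and a group, 1 array stood apart from the other 3 by Dixon's test, and chance alone flags about 5% of such groups. All 6 arrays were dim in Cy3 for that member. Mpo was at -0.27 on LPS-G1 replicate 3. Prtn3 was at -0.30 on C-G0 replicate 4, -0.16 on C-G1 replicate 4, -0.67 on LPS-G0 replicate 4 and 0.72 on LPS-G2 replicate 3. Ltf was at 0.60 on LPS-G1 replicate 4. Each of these Prtn3 and Ltf values stood beside arrays at 0, the ratio of spots with a substitute in both channels. The Elane value of 3.13 on C-G1 replicate 1 did not pass this test, since the other arrays of C-G1 spread from -1.22 to -0.25.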

How the results depend on the processing

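Limma called 0 members in each of the 11 comparisons under every alternative run, including no filter on dim probes, where all 10 members were tested. Without the filter, Ngp had the smallest adjusted p of the other members, 0.092 by limma in LPS-G1 vs. LPS-G0 at a log2 difference of -1.05. In LPS-G2 vs. LPS-G0 its difference was -0.71, with an unadjusted p of 0.0187 by limma. These Ngp differences were -0.26 and -0.12 with normexp (offset 50 and loess), and -0.88 and -0.46 with Cy3 alone. The difference of Camp in LPS-G0 vs. C-G0 ran from -0.56 to -0.32 over the alternatives and from -0.68 to -0.42 with single arrays left out, with adjusted p from 0.127 to 1. In LPS-G2 vs. LPS-G0 it ran from 0.43 to 0.70 and from 0.53 to 0.82, with adjusted p from 0.093 to 1. In LPS-G1 vs. LPS-G0 it ran from 0.15 to 0.36 and from 0.20 to 0.39. The low ends came from normexp with offset 50 and loess, which moved all 3 by over 1.5 times. Array weights put C-G1 vs. C-G0 at -0.06. The direction of Camp turned in LPS-G1 vs. C-G1 with array weights (-0.0945) and without C-G1 replicate 2 (-0.10), with a range of -0.10 to 0.288 over left-out arrays. It turned in LPS-G2 vs. C-G2 with array weights (0.0583) and without C-G2 replicate 2 (0.26), C-G2 replicate 4 (0.08) or LPS-G2 replicate 2 (0.13), with a range of -0.30 to 0.26, and in C-G2 vs. C-G0 without C-G2 replicate 2 (-0.16), with a range of -0.16 to 0.403. None of these values was called. Without both LPS-G0 arrays of conflicting labels, Camp was at -0.56 against C-G0, and LPS-G2 at 0.66 against LPS-G0. With the replicate block, Camp had adjusted p of 0.17, 0.324 and 0.422 by limma for LPS on the plain diet, for G1 under LPS and for G2 under LPS, and no call changed. Arrays of the same number in different groups correlated at a mean of 0.11 (60 pairs, -0.30 to 0.54) and others at -0.04, so the numbers were not used as pairs. For the other 9 members, 12 of 99 log2 differences turned in sign with normexp, 9 with the processed ratio and 18 with Cy3 alone. Chosen after seeing the data, the rule that every spot be well above background left 13 detections without LPS and 2 with LPS, and slides 1 and 2 alone 7 and 1. Slide 3 alone had 15 and 10. Dim signals in Cy3 limit all members but Camp.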
